A study of Mus musculus with 14 samples.

Results

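Expression of 29 genes of cholesterol synthesis, uptake and efflux was examined in the livers of high-fat fed mice given mesenchymal stem cells (MSC, HFM group) or saline (HFS group). The genes were chosen by name, as 17 enzymes of the synthesis pathway, 4 genes of sterol sensing, and genes of transfer and esterification, efflux, HDL handling and the liver X receptor. A gene was represented by the probe set annotated to that symbol alone with the highest mean over the 14 arrays. By this rule 27 of the 29 genes could be measured, including 16 of the 17 synthesis enzymes, out of 19938 genes with a probe set of their own, and Acat2 and Soat2 were not analysed here.

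Each array held liver RNA from 1 male C57BL/6 mouse, and there were 7 HFM and 7 HFS mice. HFM mice received human bone marrow MSC by tail vein, all from a single donor, and HFS mice received vehicle, called saline in the labels and PBS in part of the study's methods. All 14 mice were 24 weeks old, had eaten the high-fat diet for 20 weeks and were killed 24 h after the injection, and livers were flash frozen. A chow-fed group was not analysed here, so the comparison is between MSC and saline on a high-fat diet only. In whole liver, fewer cells of a type and less RNA per cell cannot be told apart.

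Cholesterol is built from acetyl-CoA through mevalonate, squalene and lanosterol, and the liver is a main site of this synthesis. When sterols in the endoplasmic reticulum are low, SCAP carries the transcription factor SREBP2 to the Golgi, where it is cleaved and released to switch on the genes of the synthesis enzymes. When sterols are plentiful, INSIG proteins hold SCAP back. Oxysterols activate the liver X receptors, which switch on efflux genes, among them ABCA1, which loads cholesterol onto apolipoprotein A-I, and the pair ABCG5 and ABCG8, which exports it into bile. In plasma LCAT esterifies the cholesterol of HDL, and the receptor SR-BI, encoded by Scarb1, takes it up into the liver.

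Promoter sequences were available for 23 of the 29 genes (RefSeq, GRCm38.p6), and those of Hmgcs1, Insig1 and the 3 synthesis enzymes with the widest spread between mice among those matched, Cyp51, Idi1 and Nsdhl, are shown because the values below turn on these genes. They were chosen after the values were seen. The window is the 250 bases before the transcription start, written in the direction of the gene, and capitals mark a sterol response element (TCACNCCAC) or a CCAAT box (CCAAT, which reads ATTGG on the opposite strand), each searched on both strands.
Hmgcs1, chr13:119690101-119690350, plus strand: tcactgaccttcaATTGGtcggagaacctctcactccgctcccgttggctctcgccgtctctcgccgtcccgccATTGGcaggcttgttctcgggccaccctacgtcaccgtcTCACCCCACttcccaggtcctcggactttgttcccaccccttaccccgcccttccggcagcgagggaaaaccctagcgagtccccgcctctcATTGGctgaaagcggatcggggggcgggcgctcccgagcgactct
Cyp51, chr5:4104698-4104947, minus strand: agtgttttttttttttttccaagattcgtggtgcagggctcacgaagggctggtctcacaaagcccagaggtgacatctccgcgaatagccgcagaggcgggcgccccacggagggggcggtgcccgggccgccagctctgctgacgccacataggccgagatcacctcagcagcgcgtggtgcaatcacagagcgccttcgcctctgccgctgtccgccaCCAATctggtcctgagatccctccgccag
Idi1, chr13:8885356-8885605, plus strand: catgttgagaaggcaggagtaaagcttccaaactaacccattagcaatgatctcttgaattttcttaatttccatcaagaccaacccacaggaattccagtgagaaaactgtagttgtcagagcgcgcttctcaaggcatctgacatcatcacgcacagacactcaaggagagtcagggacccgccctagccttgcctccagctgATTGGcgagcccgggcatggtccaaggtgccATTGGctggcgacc
Nsdhl, chrX:72918271-72918520, plus strand: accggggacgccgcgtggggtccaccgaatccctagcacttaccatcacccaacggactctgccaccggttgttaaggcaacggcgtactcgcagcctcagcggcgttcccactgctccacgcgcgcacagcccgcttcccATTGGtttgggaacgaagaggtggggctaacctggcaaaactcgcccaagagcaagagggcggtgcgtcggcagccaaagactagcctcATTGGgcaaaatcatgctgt
Insig1, chr5:28071162-28071411, plus strand: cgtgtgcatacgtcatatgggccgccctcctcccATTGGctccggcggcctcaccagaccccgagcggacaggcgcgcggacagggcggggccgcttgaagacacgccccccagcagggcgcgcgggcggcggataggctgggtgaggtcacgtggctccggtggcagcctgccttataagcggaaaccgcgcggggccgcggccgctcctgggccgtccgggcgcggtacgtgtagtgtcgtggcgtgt

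Among the 13 measured synthesis enzymes with a matched promoter, the letters TCACNCCAC were found in 1, Hmgcs1, at 137 bases before the start. A sterol response element with other letters was not searched for, so its absence from the other promoters is not shown. Over all 32851 mouse promoters in the same table and window, 1.05% held TCACNCCAC. A CCAAT box was present in 12 of the 13 synthesis promoters, against 33.8% of all promoters. The GC box (GGGCGG, both strands, not capitalized here) was likewise present in 12 of the 13, against 32.7% of all promoters. A GC box can share letters with a CCAAT box, and both were then counted. The Hmgcs1 promoter held 3 CCAAT boxes, between 45 and 237 bases before the start. These matches are letters within a window, and binding was not measured.

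Abcg5 and Abcg8 lie head to head on chromosome 17, with Abcg5 starting at base 84683011 on the minus strand and Abcg8 at base 84683121 on the plus strand. The 109 bases between both starts are shown because these genes varied together across mice. Written on the plus strand, the interval held no capitalized motif.
Abcg5-Abcg8 interval, chr17:84683012-84683120: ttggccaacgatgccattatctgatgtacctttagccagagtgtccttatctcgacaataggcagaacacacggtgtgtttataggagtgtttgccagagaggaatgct

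One liver, HFM3, stood apart from the others before any group was compared. It held the highest value of the 14 mice in 18.6% of the probe sets and the lowest in 14.7%, where an even share would be 7.14%. Its median correlation with the other arrays was 0.986, and pairwise correlations ran from 0.979 to 0.995 over all arrays. The difference of each member is therefore given with and without HFM3. None of the 7 measured hepatocyte markers passed an unadjusted limma p of 0.05, beside 3.57% higher and 2.90% lower over all probe sets. So short a list cannot show that hepatocyte content was unchanged. The mean level of these markers relative to the 14-mouse means was 0.02 ± 0.13 log2 in HFM and -0.02 ± 0.09 log2 in HFS mice (SD, n = 7 each).

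Differences between HFM and HFS mice in these genes were small beside the spread between mice. Of the 27 genes, 25 had a higher mean in HFM mice and 2 a lower one, Mvk and Lcat, with a median log2 difference of 0.13, against 0.00 over all 23410 probe sets tested, of which 51.4% lay above 0. At an unadjusted p under 0.05, 1 gene was higher in HFM mice (Nr1h3), beside 3.57% of all probe sets, and 0 were lower, beside 2.90% of all probe sets. None of the 27 passed a filter of an unadjusted limma p under 0.01 with at least a 1.2-fold difference, which 0.696% of all probe sets passed. The study's methods use these limits and add a Bonferroni correction, which was left out here. After Benjamini-Hochberg adjustment the smallest p of the 27 genes was 0.772 by limma, and 0% of all probe sets passed 0.05, with a smallest adjusted p of 0.305 over all of them. An unmoderated test likewise gave 0 probe sets past an adjusted p of 0.05.

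These counts moved with single mice. With HFM3 left out, 19 of the 27 genes had a higher mean in HFM mice and 8 a lower one, the median difference was 0.06, and 0 genes passed an unadjusted p of 0.05. The count was 5 without HFM5 (Hmgcs1, Fdps, Srebf2, Insig1 and Nr1h3), 3 without HFM7 (Fdps, Srebf2 and Nr1h3) and 2 without HFS7 (Hmgcs1 and Fdps). It was 0 without HFM2, HFM4, HFS2, HFS3, HFS4 or HFS6. The share of all probe sets past this p was not counted in these refits, so the counts cannot be set beside it.

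**Figure D1:**
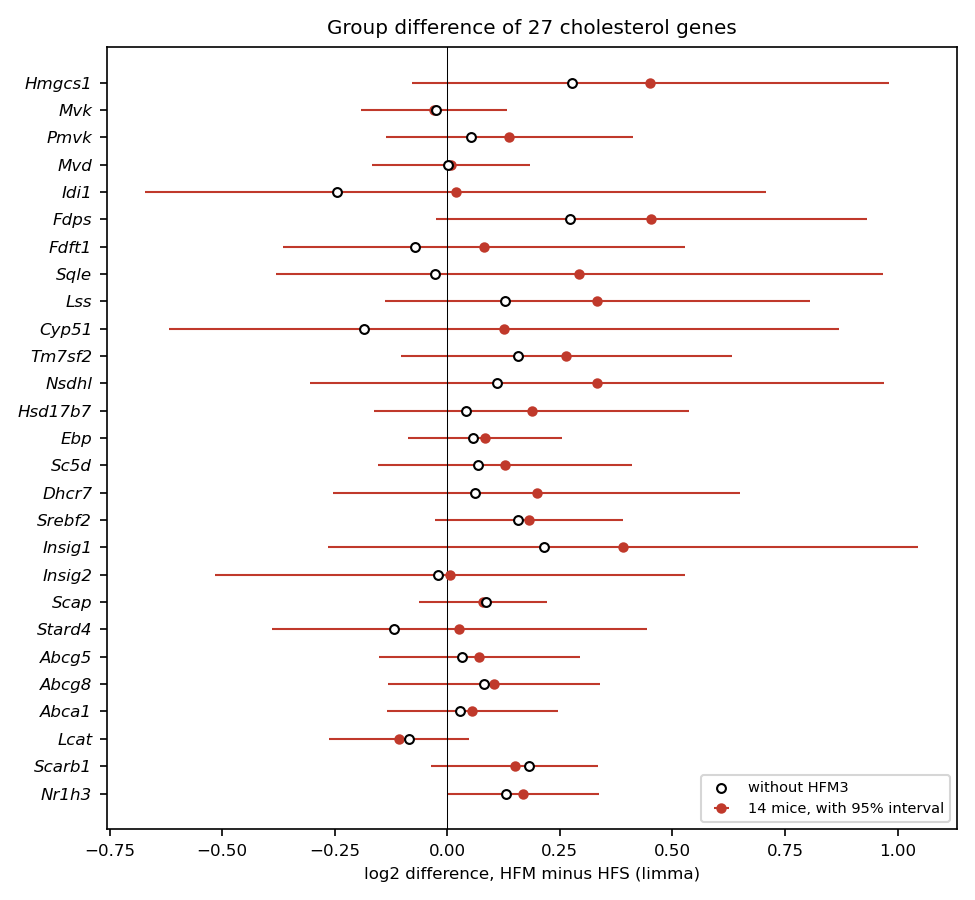
Log2 difference in hepatic expression, HFM minus HFS, for the 27 measured genes, with filled points and 95% intervals from limma over 14 mice and open points for the fit without HFM3. The interval of Nr1h3 alone lies above 0, and without HFM3 the points of 8 genes lie below 0.

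The synthesis enzymes had higher means in HFM mice in 15 of 16 genes, and none passed an unadjusted p of 0.05. Their median difference was 0.16 log2, with a range from -0.03 for Mvk to 0.45 for Fdps and Hmgcs1. Limma p-values ran from 0.0616 to 0.955. Leaving out HFM3 gave a median of 0.05 log2, with 11 enzymes above 0 and 5 below, and the sign turned for Idi1, Fdft1, Sqle and Cyp51.

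Hmgcs1 encodes the cytosolic synthase that makes HMG-CoA at the entry to the mevalonate branch. Its log2 expression had a lowest value of 7.50, a median of 8.39 and a highest value of 9.38 in HFM mice, against 7.05, 7.92 and 8.48 in HFS mice. The groups overlapped, with 3 HFM livers above every HFS liver and HFM5 near the low end. The difference was 0.45 log2 (1.37-fold, SE 0.25, 95% interval -0.08 to 0.98, limma p = 0.0904, exact permutation p = 0.168), and it was 0.28 without HFM3.

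Pmvk, the kinase that adds a phosphate to phosphomevalonate, had 5.88, 6.10 and 6.74 log2 (lowest, median and highest) in HFM mice, against 5.59, 6.16 and 6.43 log2 in HFS mice. The HFM median was thus the lower one while the mean difference was 0.14 log2 (SE 0.13, exact permutation p = 0.382), and without HFM3 it was 0.05. Mevalonate kinase, Mvk, differed by -0.03 log2 (SE 0.08, -0.02 without HFM3) and Mvd, the decarboxylase that follows, by 0.01 log2 (SE 0.08, 0.00 without HFM3). Mvk, Mvd and Ebp had the narrowest ranges of the 16 enzymes over the 14 mice, at 0.54, 0.59 and 0.56 log2.

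Fdps encodes farnesyl diphosphate synthase, which joins the isoprene units. Its values were 5.97, 6.55 and 7.73 log2 (lowest, median and highest) in HFM mice, against 5.34, 6.23 and 6.67 log2 in HFS mice. The difference of 0.45 log2 (1.37-fold, SE 0.23, 95% interval -0.02 to 0.93, limma p = 0.0616, exact permutation p = 0.130) carried the smallest p of the 16 enzymes. It was 0.27 without HFM3. In HFS mice the lowest value, in HFS2, lay well below the next at 6.12 log2.

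Idi1, the isomerase that supplies Fdps, differed by 0.02 log2 (-0.24 without HFM3) and Fdft1, squalene synthase, by 0.08 log2 (-0.07 without HFM3). A second probe set gave 0.06 for Idi1 and 0.16 for Fdft1. For Idi1 the lowest, median and highest values were 4.37, 5.09 and 7.04 log2 in HFM mice, against 4.83, 5.67 and 5.94 log2 in HFS mice. Both the highest and the lowest livers for Idi1 were HFM mice, HFM3 and HFM5, so that the group means met while the spread was wider in HFM mice, with an SD of 0.97 log2, than in HFS mice, with an SD of 0.44 log2. A test of that difference in spread was not run.

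Squalene epoxidase, Sqle, had 4.01, 4.38 and 6.81 log2 (lowest, median and highest) in HFM mice, against 4.16, 4.45 and 5.36 log2 in HFS mice. The mean difference of 0.29 log2 (SE 0.32, exact permutation p = 0.543) rested on 1 liver, HFM3, and was -0.03 without it. Lss, lanosterol synthase, had 4.70, 5.15 and 6.58 log2 in HFM mice, against 4.47, 5.10 and 5.32 log2 in HFS mice. Its medians lay close together, and the difference was 0.33 log2 (SE 0.22, exact permutation p = 0.262) with HFM3 and 0.13 without. Sqle, Idi1 and Cyp51 are described by sample outside the rule for named genes, after their values were seen.

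Cyp51, the demethylase that acts on lanosterol, had the widest range of the members, 3.08 log2 over the 14 mice. Its lowest, median and highest values were 4.44, 5.35 and 7.44 log2 in HFM mice, against 4.36, 5.63 and 6.19 log2 in HFS mice. The highest liver was HFM3 and the lowest HFS2. A difference of 0.13 log2 (SE 0.35, exact permutation p = 0.784) with HFM3 compared with -0.18 without it.

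Among the later steps, the sterol reductase Tm7sf2 had 6.31, 6.58 and 7.33 log2 (lowest, median and highest) in HFM mice, against 5.86, 6.59 and 6.90 log2 in HFS mice. Its difference was 0.26 log2 (SE 0.17, exact permutation p = 0.234), or 0.16 without HFM3. Nsdhl, the dehydrogenase that removes methyl groups of the sterol ring, had 5.50, 6.48 and 8.04 log2 in HFM mice, against 5.67, 6.26 and 7.02 log2 in HFS mice. For Nsdhl 3 HFM livers lay above every HFS liver and 1, HFM5, below all of them, with a difference of 0.33 log2 (SE 0.30, exact permutation p = 0.390), or 0.11 without HFM3.

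Hsd17b7, the ketosteroid reductase that works beside Nsdhl, had 6.26, 6.43 and 7.56 log2 in HFM mice, against 6.17, 6.51 and 6.80 log2 in HFS mice, and the difference was 0.19 log2 (SE 0.17, exact permutation p = 0.391), or 0.04 without HFM3. Ebp, the sterol isomerase, had 7.98, 8.16 and 8.43 log2 in HFM mice, against 7.87, 8.15 and 8.26 log2 in HFS mice, with a difference of 0.08 log2 (SE 0.08, exact permutation p = 0.325), or 0.06 without HFM3. Ebp was the only enzyme whose highest liver was HFM5, the liver that was lowest for 4 other enzymes. The desaturase Sc5d differed by 0.13 log2 (SE 0.13, 0.07 without HFM3) and Dhcr7, the reductase of the final step, by 0.20 log2 (SE 0.22, 0.06 without HFM3), and both were lowest in HFS2 and highest in HFM3.

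**Figure D2:**
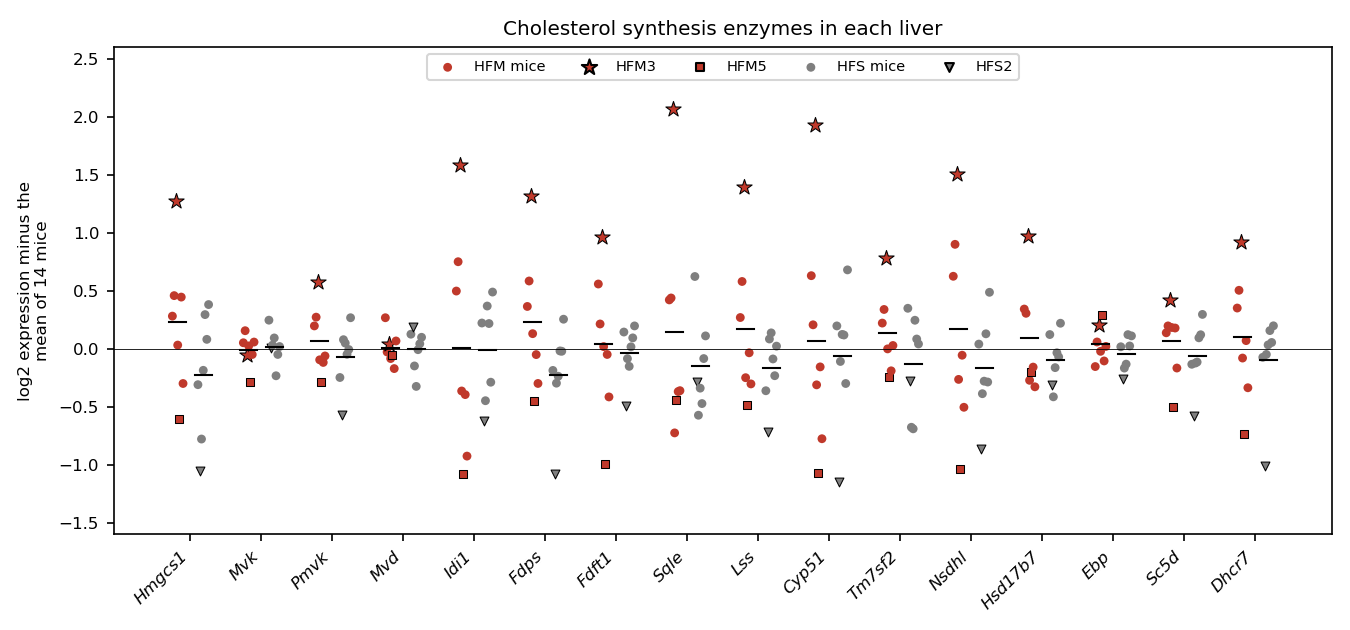
Log2 expression of the 16 measured synthesis enzymes in each liver minus the mean of the 14 mice, with HFM mice left of HFS mice and group means as bars. HFM3 (star) is highest for 13 enzymes, HFM5 (square) is lowest for 4 and HFS2 (triangle) is lowest for 8.

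Most of the synthesis enzymes shared a wide spread between mice of the same group and a common order of mice. HFM3 was the highest of 14 livers for 13 of the 16 enzymes, all but Mvk, Mvd and Ebp. HFS2 was lowest for 8 enzymes and HFM5 for 4. Over all probe sets HFM3 was highest in 18.6%, HFS2 lowest in 7.97% and HFM5 lowest in 7.82%. The residual SD within groups had a median of 0.483 log2 over the 16 enzymes, against 0.153 log2 over all probe sets. For 13 enzymes it lay above the 95th percentile of all probe sets. A wide spread was not particular to these enzymes. The 16 macrophage markers described below lay at percentiles from 95.8 to 99.7, and Cyp7a1, a gene of bile acid synthesis, at 99.96. Hepatocyte markers ran from 0.137 (Alb) to 98.7 (Tat).

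Averaged over the 16 enzymes, relative to the 14-mouse mean of each gene, log2 expression was 0.10 ± 0.50 in HFM and -0.10 ± 0.26 in HFS mice (SD, n = 7 each). The difference of 0.19 log2 was within the SD of either group. It was 0.04 without HFM3, 0.11 without HFS2 and 0.29 without HFM5. By mouse the mean ran from -0.51 (HFM5) to 0.99 (HFM3) in HFM mice, with a median of -0.08, and from -0.57 (HFS2) to 0.24 (HFS7) in HFS mice, with a median of -0.05. The medians of both groups were thus close, and the livers at the top of the whole order were HFM3, HFM2 and HFM1.

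None of the 4 sensing genes passed an unadjusted p of 0.05. Their residual SD within groups was 0.715 log2 for Insig1, 0.565 for Insig2, 0.203 for Srebf2 and 0.113 for Scap, against the median of 0.153 log2 over all probe sets, so that only Scap lay below it. Srebf2, which encodes SREBP2, had 6.25, 6.67 and 7.02 log2 (lowest, median and highest) in HFM mice, against 6.29, 6.47 and 6.64 log2 in HFS mice. In 4 HFM livers it was above every HFS liver, the highest being HFM2, while HFM5 was the lowest of all. The difference was 0.18 log2 (1.13-fold, SE 0.10, 95% interval -0.03 to 0.39, limma p = 0.0832, exact permutation p = 0.118), and 0.16 without HFM3. By limma it passed an unadjusted p of 0.05 without HFM5 (0.25 log2) or without HFM7 (0.23 log2).

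Scap, the escort of SREBP2, had 7.61, 7.67 and 7.79 log2 in HFM mice, against 7.48, 7.55 and 7.84 log2 in HFS mice. It differed by 0.08 log2 (SE 0.07, exact permutation p = 0.213), or 0.09 without HFM3, and 6 of 7 HFM livers were above the HFS mean. Insig1, the retention protein that is itself a target of SREBP2, had 7.33, 8.78 and 9.81 log2 in HFM mice, against 7.22, 8.61 and 9.05 log2 in HFS mice. For Insig1, 6 of 7 HFM livers were above the HFS mean and the seventh, HFM5, was the second lowest of the 14, after HFS2. Its difference was 0.39 log2 (1.31-fold, SE 0.31, 95% interval -0.27 to 1.05, exact permutation p = 0.323), or 0.22 without HFM3. It was 0.63 without HFM5 and then passed an unadjusted p of 0.05 by limma.

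Insig2, the second retention protein, had 7.94, 8.85 and 9.38 log2 in HFM mice, against 7.60, 8.83 and 9.21 log2 in HFS mice. The difference was 0.01 log2 (SE 0.25, 95% interval -0.52 to 0.53, exact permutation p = 0.984), or -0.02 without HFM3. Its highest livers were HFM6 and HFM5, and the lowest was HFS1, so the order of mice was not that of Insig1. Insig2 partly followed the replicate number. Replicates 5 to 7 of both groups lay between 8.83 and 9.38 log2, against 7.60 to 8.92 log2 in replicates 1 to 4. Stard4, which carries cholesterol between membranes, had 5.21, 5.88 and 6.75 log2 in HFM mice, against 5.11, 5.88 and 6.23 log2 in HFS mice. Stard4 differed by 0.03 log2 (SE 0.20, exact permutation p = 0.908), or -0.12 without HFM3, and it was highest in HFM3 and lowest in HFS2.

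**Figure D3:**
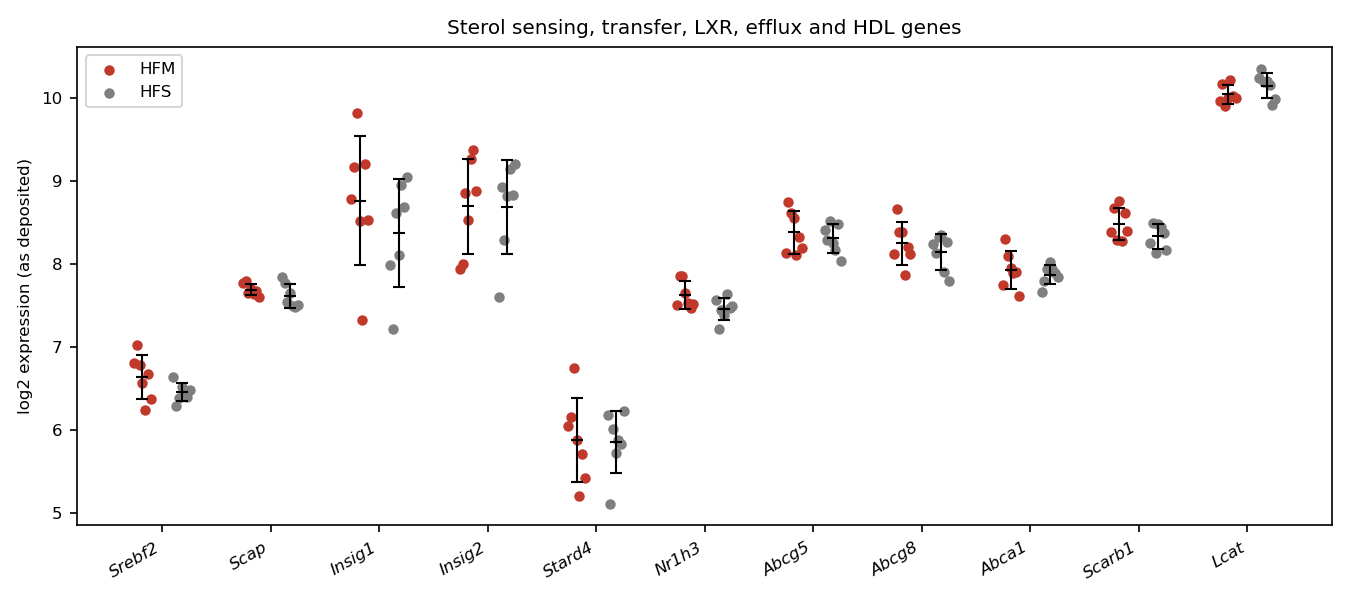
Log2 expression, as deposited, of the sensing genes, Stard4, Nr1h3, the efflux transporters, Scarb1 and Lcat in each liver, with HFM mice left of HFS mice and bars for mean ± SD (n = 7 each). The groups overlap for every gene, and Insig1, Insig2 and Stard4 spread more widely than the others.

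The efflux transporters had a median difference of 0.07 log2 over 3 genes, and none passed an unadjusted p of 0.05. Abcg5, one partner of the biliary cholesterol exporter, had 8.11, 8.32 and 8.75 log2 (lowest, median and highest) in HFM mice, against 8.03, 8.29 and 8.52 log2 in HFS mice. Abcg8, the other partner, had 7.86, 8.21 and 8.66 log2 in HFM mice, against 7.80, 8.24 and 8.35 log2 in HFS mice. For each of them 3 HFM livers, HFM2, HFM3 and HFM4, were above every HFS liver and the lowest of the 14 was HFS7. The differences were 0.07 log2 for Abcg5 (SE 0.11, exact permutation p = 0.550, 0.03 without HFM3) and 0.10 log2 for Abcg8 (SE 0.11, exact permutation p = 0.439, 0.08 without HFM3).

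Abca1, which hands cholesterol to apolipoprotein A-I, had 7.61, 7.91 and 8.30 log2 in HFM mice, against 7.67, 7.89 and 8.02 log2 in HFS mice. HFM2 and HFM3 were highest and HFM7 lowest, and the difference was 0.06 log2 (SE 0.09, exact permutation p = 0.574), or 0.03 without HFM3 and -0.01 without HFM2. Over the 3 transporters the per-mouse mean was 0.04 ± 0.23 log2 in HFM and -0.04 ± 0.13 log2 in HFS mice (SD, n = 7 each). That difference of 0.08 log2 was 0.01 without HFM2, 0.05 without HFM3, 0.04 without HFS7 and 0.12 without HFM5, and it too was within the SD of either group.

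Nr1h3, which encodes the liver X receptor alpha, was the only member past an unadjusted p of 0.05. Its values were 7.47, 7.54 and 7.86 log2 (lowest, median and highest) in HFM mice, against 7.22, 7.47 and 7.63 log2 in HFS mice. All 7 HFM livers were above the HFS mean and 3 were above every HFS liver, with HFM2 and HFM3 highest. The difference was 0.17 log2 (1.12-fold, SE 0.08, 95% interval 0.00 to 0.34, limma p = 0.0496, adjusted p = 0.772), or 0.13 without HFM3, and a two-sided exact permutation test gave p = 0.0624. It no longer passed 0.05 by limma when HFM2, HFM3, HFM4, HFS2, HFS3, HFS4, HFS6 or HFS7 was left out, with differences from 0.13 to 0.17 log2 and p-values from 0.0573 to 0.12. With the replicate number as a block the p-value was 0.0946.

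The HDL genes pointed in opposite directions, and neither passed the test. Scarb1, the HDL receptor, had 8.27, 8.40 and 8.75 log2 in HFM mice, against 8.14, 8.37 and 8.49 log2 in HFS mice, with a difference of 0.15 log2 (SE 0.09, exact permutation p = 0.131). Lcat, the plasma enzyme that esterifies HDL cholesterol, had 9.91, 10.002 and 10.22 log2 in HFM mice, against 9.91, 10.19 and 10.35 log2 in HFS mice, with a difference of -0.11 log2 (SE 0.07, exact permutation p = 0.165). In Lcat 5 of 7 HFM livers were below the HFS mean. Without HFM3 the differences were 0.18 log2 for Scarb1 and -0.08 log2 for Lcat.

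The livers ranked first and second in synthesis were also those ranked first and second in efflux. Other livers that were high or low in one were not all so in the other. HFM3 ranked first for the synthesis mean and second for the efflux mean, and HFM2 ranked second for synthesis and first for efflux. HFM5 ranked 13 of 14 for both. HFS2 ranked 14 for synthesis and 9 for efflux, HFS7 ranked 4 and 14, HFM1 ranked 3 and 11, and HFM4 ranked 10 and 3. No test was made of a score over the members.

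**Figure D4:**
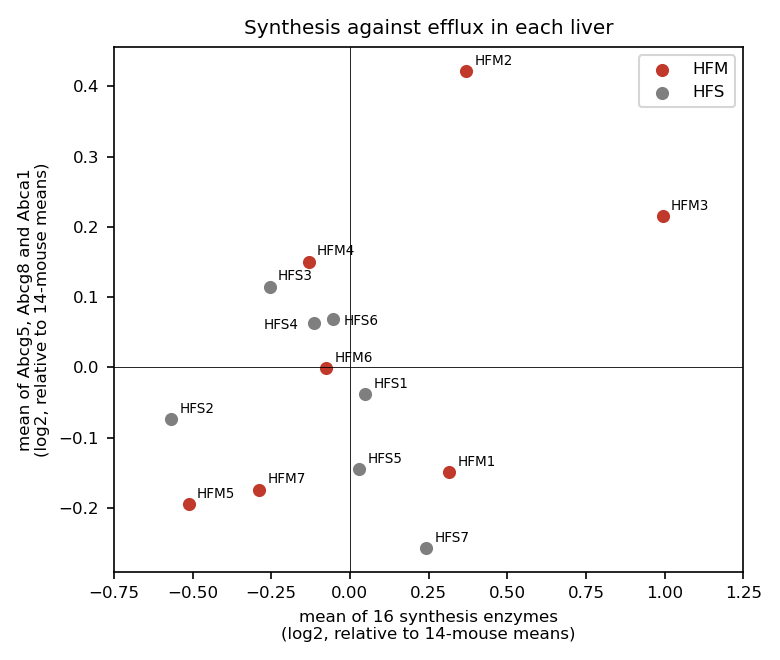
Mean log2 expression of the 3 efflux transporters (vertical) against that of the 16 synthesis enzymes (horizontal) in each liver, both relative to the 14-mouse mean of each gene. HFM3 and HFM2 are high on both axes, HFM5 is low on both, and HFS7 is high on synthesis and lowest on efflux.

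Members also varied together across mice, and 5 gene pairs, chosen after the values were seen, are described with no test. All correlations are over the same 14 mice. Insig1 and Hmgcs1 had r = 0.88 and rho = 0.92. Without HFS2 and HFM5, the livers farthest from the Insig1 median, r was 0.84, as it was without HFM3 alone, and it was 0.94 within HFM mice and 0.79 within HFS mice.

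Abcg5 and Abcg8, which share the interval printed above, had r = 0.90 and rho = 0.92. Without HFM2 and HFM3 r was 0.84, without HFM3 alone it was 0.90, and it was 0.94 within HFM mice and 0.84 within HFS mice. Srebf2 and Hmgcs1 had r = 0.71 and rho = 0.74. Leaving out HFM2 and HFM1 gave r = 0.79 and leaving out HFM3 r = 0.69, with 0.76 within HFM mice and 0.49 within HFS mice.

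Insig1 and Insig2, which hold back the same escort, had a correlation near 0, with r = 0.01 and rho = 0.13. Without HFS2 and HFM5 r was 0.40, without HFM3 it was -0.04, and it was -0.25 within HFM mice and 0.31 within HFS mice. The part of the replicate number in this correlation was not tested. Nr1h3 and its target Abca1 had r = 0.57 but rho = 0.29. Without HFM2 and HFM3 r was -0.00, so this value rested on these livers, and without HFM3 alone it was 0.49. It was 0.84 within HFM mice and -0.05 within HFS mice.

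**Figure D5:**
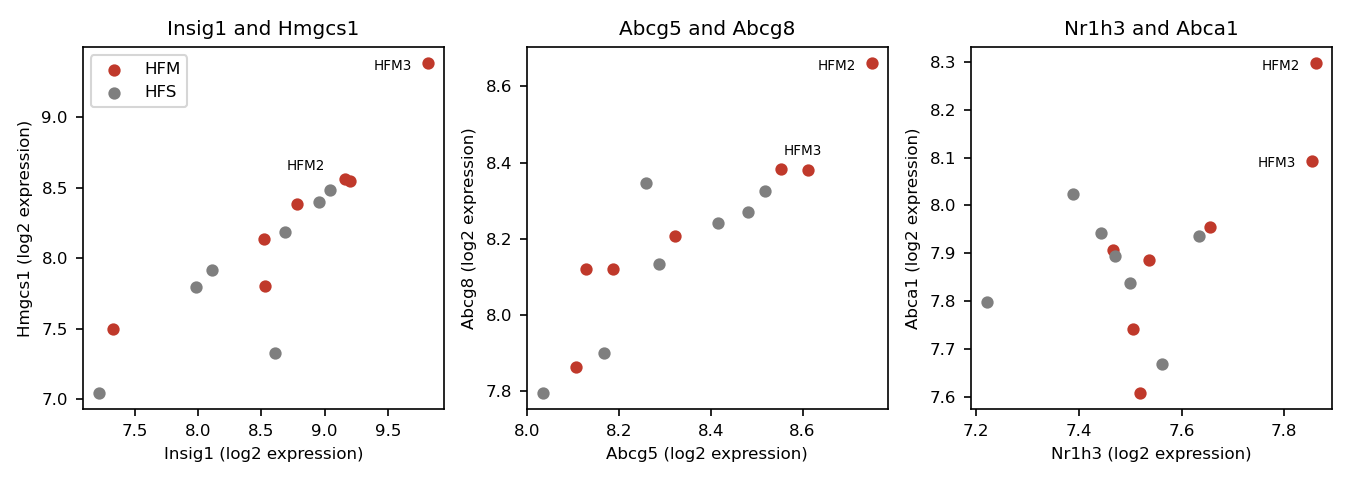
Log2 expression of Hmgcs1 against Insig1, Abcg8 against Abcg5 and Abca1 against Nr1h3 in 7 HFM and 7 HFS livers, 1 point per mouse, with HFM2 and HFM3 named. The first and second panels show a rising line of points in both groups (r = 0.88 and 0.90), and in the last HFM2 and HFM3 lie above a cloud with no slope.

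A wider list of cholesterol genes outside the 29 was set beside them. Of 57 listed, 48 were measured, 25 with a higher and 23 with a lower mean in HFM mice, and a median difference of 0.01 log2. At an unadjusted limma p of 0.05, 4 of the 48 were higher, beside 3.57% of all probe sets, and 1 was lower, beside 2.90% of all probe sets. The 4 were Lrp1, an endocytic receptor for lipoprotein remnants (0.28 log2, SE 0.07, exact permutation p = 0.00117), Lima1, which acts in cholesterol absorption (0.26 log2, SE 0.10, exact p = 0.0332), Mylip, a ubiquitin ligase for lipoprotein receptors (0.27 log2, SE 0.11, exact p = 0.0414), and Cyp27a1, a sterol hydroxylase of bile acid synthesis (0.15 log2, SE 0.07, exact p = 0.0233). Pon1, an esterase carried on HDL, was the lower one (-0.36 log2, SE 0.09, exact permutation p = 0.00291).

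Lrp1 and Pon1, 2 of the 48, also passed the filter of p under 0.01 and 1.2-fold, beside 0.696% of all probe sets. The paper already lists both among the genes changed in these arrays, so their values are a description and no independent evidence. No gene of the wider list passed an adjusted p of 0.05, with a smallest value of 0.714. Next in order of limma p were Erlin2, a protein of the endoplasmic reticulum that takes part in sterol-regulated degradation (0.15 log2, exact permutation p = 0.0484), Cyp7b1, an oxysterol hydroxylase (-0.53 log2, exact p = 0.158), and Srebf1, which encodes SREBP1 and is a target of the liver X receptor (0.40 log2, exact p = 0.182). Msmo1, a methyl sterol oxidase of the synthesis pathway named after its value was seen, had a mean of 7.45 ± 0.88 log2 in HFM and 6.91 ± 0.77 log2 in HFS mice (SD, n = 7 each, exact permutation p = 0.242), and like 13 of the 16 enzymes it was highest in HFM3.

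Of the marker lists, those of macrophages and of the acute phase response held the most genes past an unadjusted p of 0.05, and no marker of any list passed an adjusted p of 0.05 (smallest 0.482 by limma). Macrophage markers had a higher mean in HFM mice in 16 of 16 genes, with 7 past an unadjusted p of 0.05 and a median difference of 0.30 log2. Their per-mouse mean ran from -0.26 to 0.78 log2 in HFM mice, highest in HFM2, against -0.48 to 0.46 log2 in HFS mice, and the difference of the group means was 0.35 log2, or 0.34 without HFM3. HFM2 was also the highest liver for Nr1h3, Abca1, Abcg5, Abcg8 and Srebf2. Acute phase genes were higher in mean in 10 of 10, with 8 past an unadjusted p of 0.05 and a median difference of 0.55 log2. Their per-mouse mean ran from -0.05 to 0.68 log2 in HFM mice, against -1.13 to 0.68 log2 in HFS mice. At that p, 3.57% of all probe sets were higher in HFM mice. The macrophage and acute phase lists hold genes that the paper reports as changed in these arrays. Among them are Cd5l, Marco, Cd68, Fcer1g, Tyrobp, Saa1, Saa3 and Lcn2. The counts of both lists are therefore a description and no independent evidence.

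Of the remaining marker lists, 0 of 8 neutrophil and 0 of 5 cholangiocyte genes passed an unadjusted p of 0.05 in either direction. Neutrophil genes were nonetheless high in a single liver, HFM2. There S100a8, S100a9 and Ngp stood at 6.84, 7.00 and 5.95 log2. The next highest liver for these genes was HFS5, at 4.71, 5.48 and 4.89 log2. Retnlg, Ly6g, Elane and Mmp8 were also highest in HFM2, while Camp was not. The lymphocyte list had 1 of 9 higher and 1 lower, the endothelial list 1 of 8 higher and the stellate list 1 of 8 higher. Over all probe sets 3.57% were higher and 2.90% lower at this p. The part of macrophage content, neutrophil content or the acute phase response in the values of Nr1h3, Srebf2 and the transporters was not tested.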

How the data were processed

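Hepatic RNA of 14 mice had been hybridized to Affymetrix mouse gene arrays, 1 mouse per array. The deposited values are log2 expression, which the authors summarized per probe set and normalized between arrays in Affymetrix Expression Console, by RMA in the labels and by PLIER in the paper. This normalization sets levels relative to the other arrays, so that a change shared by all genes would not be seen. For Expression Console the sources used here give no version, and they name neither a probe annotation nor a genome build. In the paper's methods, Partek results were limited to p under 0.01 and at least 1.2-fold, with Bonferroni's correction added, and the filter applied here takes both limits on limma p-values without that correction. All value columns were used (0 left out).

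From these log2 values, HFM minus HFS differences were fitted with limma 3.58.1 in R 4.3.3 (lmFit, eBayes, no covariate) on the 23410 probe sets with a symbol, without a filter on signal, and p-values were adjusted by Benjamini-Hochberg over all of them. Exact permutation tests of single genes were two-sided over 3432 assignments of mice (smallest possible p 0.000583). Correlations of gene pairs (scipy 1.17.1) are given without a test. The number of arrays limits the precision. The fit was tested on simulated data. The members and lists were chosen with earlier results of these data known.

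All members were named by role, with lowest, median and highest values for the sensing, transfer, efflux, HDL and LXR genes and the 8 synthesis enzymes with the smallest p, and of other pathway genes the 8 with the smallest p. The mean over synthesis enzymes holds 16 genes. Probe identifiers of 27 of 27 measured members matched RefSeq, and promoters came from RefSeq GRCm38.p6. The fit was repeated with median centring or quantile normalization, a block for the replicate number, array weights, an unmoderated test or a trended and robust prior, all or only the brighter probe sets, 1 probe set or the mean per gene, and without each mouse.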

Additional observations from a re-analysis of the deposited data

Results flagged for a closer look

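Each of the 27 genes and both per-mouse means (synthesis and efflux) were examined in each group, which makes 58 sets of 7 mice. In 3 of these, each for a single gene, 1 mouse lay far from the other 6 of its group, with a gap to the nearest mouse that was above Dixon's 95% critical value as a share of the group's range, and chance alone gives about 2.9 of 58. Sqle in HFM mice had a highest value of 6.81 log2 in HFM3, with the next HFM liver at 5.17 log2. Fdps in HFS mice had a lowest value of 5.34 log2 in HFS2, with the next HFS liver at 6.12 log2. Dhcr7 in HFS mice had a lowest value of 5.83 log2 in HFS2, with the next HFS liver at 6.76 log2. No cause was tested.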

How the results depend on the processing

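The count of members past an unadjusted p of 0.05, which was 1 (Nr1h3), was 0 with the replicate number as a block, and also with quantile normalization, a trended and robust prior, an unmoderated test, all probe sets or the brighter probe sets. With array weights the 1 gene was Scarb1 (0.22 log2). Leaving out 1 mouse in turn gave 0 to 5 members. The share of all probe sets past this p was not counted for these settings. The mean difference of the synthesis enzymes ran from 0.04 to 0.29 and that of the efflux transporters from 0.01 to 0.12 when 1 mouse was left out, and the efflux difference was 0.04 after quantile normalization. Of 27 members, 18 kept their sign in all 24 alternatives and 9 turned in at least 1. With array weights Mvd was -0.0022, Idi1 -0.14, Cyp51 -0.049 and Stard4 -0.049, and after quantile normalization Idi1 was -0.0033, Insig2 -0.026 and Stard4 -0.0032. With 1 mouse left out, ranges were -0.072 to 0.016 for Mvk, -0.044 to 0.041 for Mvd, -0.24 to 0.20 for Idi1, -0.072 to 0.25 for Fdft1, -0.027 to 0.44 for Sqle, -0.18 to 0.32 for Cyp51, -0.17 to 0.13 for Insig2, -0.12 to 0.14 for Stard4 and -0.0057 to 0.11 for Abca1. The cause was not tested. Over all probe sets, the deviations of same-numbered HFM and HFS mice had correlations from -0.20 to 0.14. Single genes can still follow the replicate number. For Nceh1, picked from the wider list after its values were seen, replicates 1 to 4 of both groups lay between 7.06 and 7.31 log2. Replicates 5 to 7 of both groups lay between 6.53 and 6.70 log2. Among the members, Insig2 lay between 8.83 and 9.38 log2 in replicates 5 to 7, against 7.60 to 8.92 log2 in replicates 1 to 4. What the replicate number stands for was not tested. Among the 27 members the block changed no call other than that of Nr1h3. Genes of the wider list and the markers were not examined with the block. Median centring moved the median difference of all probe sets to 0.03, against 0.00 as deposited, and quantile normalization to -0.00.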
